A study of Mus musculus with 10 samples.

Results

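The 50 nuclear genes that encode the subunits and assembly factors of respiratory complexes II, III and IV were followed in interscapular brown adipose tissue (iBAT) of mice with and without retinol saturase (RetSat) in brown adipocytes. They were taken by gene symbol, with earlier results of these data known, and all 50 were found among 55414 counted genes. They comprise 4 subunits and 4 assembly factors of complex II, 9 subunits and 6 assembly factors of complex III, and 15 subunits and 12 assembly factors of complex IV, tissue isoforms included. RNAseq was done on iBAT of 5 Cre- and 5 Cre+ male C57BL/6J mice on normal chow, killed at 12 to 14 weeks of age. All 10 mice carried RetSat flox/flox, so the Cre- mice are floxed controls without the recombinase, and mice with Cre but without floxed alleles were not analysed here. Cre was driven by the Ucp1 promoter without an inducer, which limits the deletion to cells that express or once expressed Ucp1, so that other cells of the depot keep the intact gene.

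Complex II (succinate dehydrogenase) passes electrons from succinate to ubiquinone, complex III (the cytochrome bc1 complex) passes them on to cytochrome c, and complex IV (cytochrome c oxidase) gives them to oxygen. In brown fat, uncoupling protein 1 lets the protons that the chain pumps flow back as heat, and the tissue is packed with mitochondria. All subunits of complex II are encoded in the nucleus, whereas complexes III and IV also hold subunits encoded by mitochondrial DNA (mtDNA), and several complex IV subunits exist as a ubiquitous and a tissue-restricted isoform.

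Total counts ranged from 91903095 to 132499312 in Cre- and from 96991071 to 110293494 in Cre+ mice. Levels are given as CPM, the counts of a gene scaled to the library size and normalised by TMM. Retsat had 151 to 255 CPM in Cre- and 18.0 to 39.0 CPM in Cre+ mice, without overlap. Libraries stood apart in 2 ways. The summed level of 16 skeletal muscle markers was 692 CPM in Cre- replicate 2 and 361 CPM in Cre+ replicate 4, against 46.8 to 74.3 CPM in the other mice. Cre+ replicates 1, 4 and 5 have an added letter in their identifiers, which no Cre- library has, and in these libraries genes deviated from the Cre- mean with their GC content. The median log2 deviation of the quintile of all genes with the highest GC content was 0.12, 0.14 and 0.09 in Cre+ replicates 1, 4 and 5, and that of the lowest quintile was -0.12, -0.10 and -0.09, whereas it stayed between -0.03 and 0.03 in both quintiles of the other 7 libraries. The 7 brown adipocyte markers summed to 6761 to 8608 CPM in Cre- and 6848 to 9218 CPM in Cre+ mice, with Ucp1 at 3576 to 5143 and 3677 to 5919 CPM. The sums of 5 markers of all adipocytes (10709 to 12702 CPM in Cre-, 10909 to 13251 CPM in Cre+), 5 endothelial markers (505 to 561 CPM and 469 to 610 CPM), 8 pericyte and smooth muscle markers (600.4 to 777 CPM and 512 to 621 CPM) and 4 macrophage markers (25.2 to 37.1 CPM and 22.1 to 39.1 CPM) also overlapped between genotypes. Of these 29 markers, 6 had an unadjusted p under 0.05 by edgeR (20.7%, against 12.3% of all genes tested) and 0 were called. Kdr (log2 fold change 0.34), Prdm16 (0.52), Adrb3 (0.45) and Plin1 (0.19) had a higher level in Cre+ mice, and Rgs5 (-0.29) and Tek (-0.19) a lower one, and the part of cell composition in the members' values was not tested. In bulk tissue, fewer cells of a type and less RNA per cell cannot be told apart.

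Subunit transcripts were among the most abundant of iBAT, and transcripts of assembly factors were far scarcer. Per kilobase of annotated exon in Cre- mice, 24 of 27 subunits that passed the filter on low counts lay above the 99th percentile of the 17690 genes tested and 26 above the 90th percentile. Of 22 assembly factors, 0 lay above the 99th and 6 above the 90th percentile. The median level was 462 CPM per kb for subunits and 9.94 CPM per kb for assembly factors. The summed CPM of all 28 subunits was 21689 ± 1487 in Cre- and 22318 ± 1433 in Cre+ mice (mean ± SD of 5 mice, here and in what follows). The 22 assembly factors summed to 845 ± 47.3 and 883 ± 50.3 CPM. Together the 50 genes took 2.19% ± 0.105 of all counts in Cre- and 2.38% ± 0.165 in Cre+ mice, and the ranges overlapped (2.10 to 2.36% and 2.21 to 2.56%).

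In complex II, Sdha, the flavoprotein that oxidises succinate, had the highest level with 706 ± 59.4 CPM per kb in Cre- mice, and Sdhc, a membrane anchor, the lowest of the subunits with 159 ± 8.27 CPM per kb. Its assembly factors reached from 22.5 ± 1.94 CPM per kb for Sdhaf4, a chaperone of Sdha, down to 2.24 ± 0.268 CPM per kb for Sdhaf3, which acts on the iron-sulfur subunit. The complex III subunits lay close to each other, between 355 ± 31.5 CPM per kb for Uqcrq and 801 ± 80.9 CPM per kb for Uqcr10, both small accessory subunits. Of its assembly factors, Uqcc3, which helps to stabilise cytochrome b, had 50.9 ± 4.01 CPM per kb and Lyrm7, a chaperone of the Rieske protein, 4.06 ± 0.178 CPM per kb. Complex IV held both extremes. Its subunit Cox8b had the highest level of the 50 genes with 2111 ± 257 CPM per kb, and its copper chaperone Sco2 the lowest of those that passed the filter with 0.399 ± 0.0452 CPM per kb. Cox14, which is needed for the maturation of the mtDNA-encoded subunit Cox1, had the highest level of the complex IV assembly factors (36.6 ± 3.66 CPM per kb). When the 50 genes were put in order of their level per kilobase, the ranges of the Cre- mice overlapped for 41 of the 49 neighbouring pairs, so neighbours in this order mostly did not differ beyond their spread. All annotated exons of a gene count as its length, and a gene with long rarely used exons is given a lower level per kilobase by this. Reads in exons shared with other genes can also be shared or lost. Of the exon bases of Sco2, 91.8% are also exons of Ncaph2 or Tymp, so its place as the lowest is uncertain. The same limit holds for the levels of Cox20 (91.1%), Sdhaf1 (69.6%), Cox16 (56.8%) and Cox11 (48.3%).

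**Figure D1:**
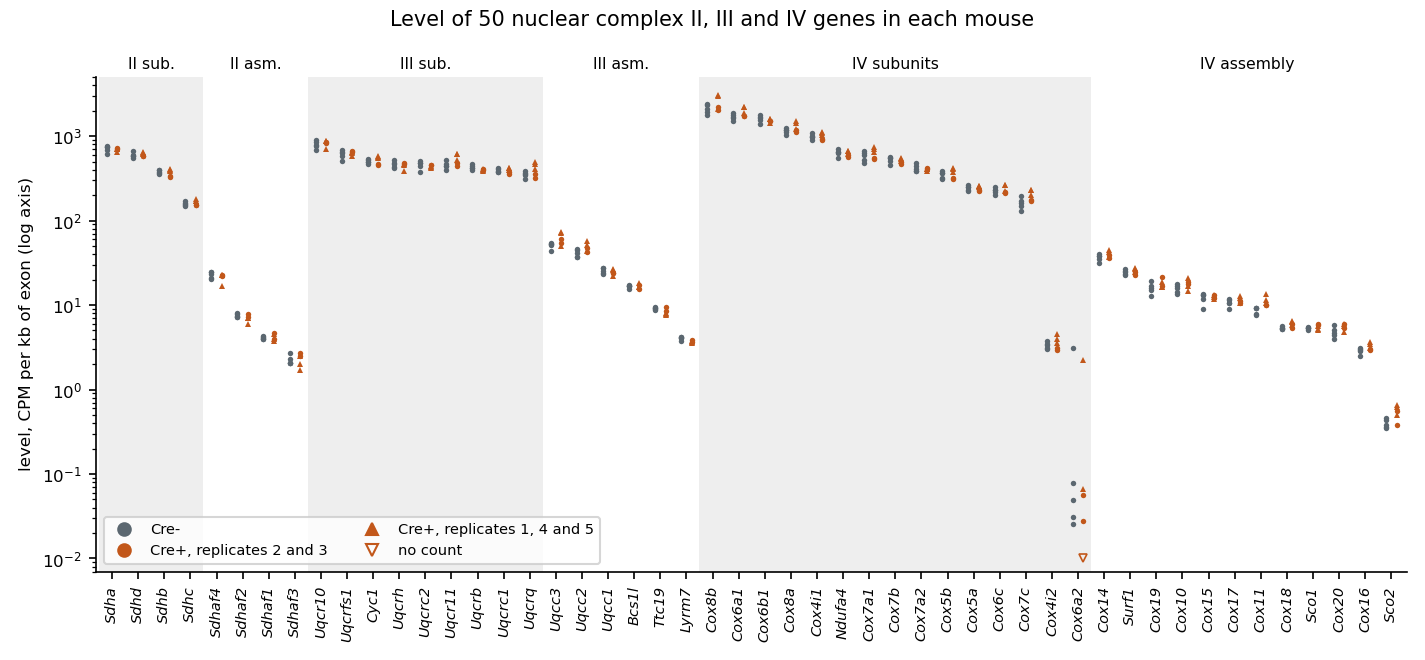
Level of each of the 50 genes in each mouse, in CPM per kb of annotated exon on a log axis, grouped by complex and by subunits (sub.) and assembly factors (asm.), with 1 point per mouse. The means of subunits sit at 159 CPM per kb or above and those of assembly factors at 62.2 CPM per kb or below, apart from Cox4i2 and Cox6a2, which lie far below the other subunits.

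The tissue isoforms of cytochrome c oxidase were used unequally. Cox7a1 and Cox8b are known as heart and skeletal muscle isoforms, and the paper also names Cox7a1 as a marker of brown adipocytes that cold induces. Per kilobase of annotated exon, Cox7a1 and Cox8b made up more of their pairs than their ubiquitous partners Cox7a2 and Cox8a. In raw counts, Cox7a1 was above 50% of its pair in only 1 library. Cox4i2, known from lung and from hypoxic cells, and Cox6a2, the other heart and skeletal muscle isoform, had few counts beside Cox4i1 and Cox6a1. In CPM per kilobase, Cox8b made up 63.1, 66.1, 63.3, 64.0 and 66.4% of Cox8b plus Cox8a in Cre- replicates 1 to 5 and 66.5, 63.2, 66.1, 63.3 and 67.8% in Cre+ replicates 1 to 5. Its share was thus above 60% in each mouse, and the genotypes overlapped. The mean share was 64.6% ± 1.56 in Cre- and 65.4% ± 2.02 in Cre+ mice, a difference of 0.793 percentage points (95% interval -1.92 to 3.56, p = 0.484 by a two-sided exact permutation test, n = 5 per group).

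Cox7a1 made up 57.3, 57.9, 55.3, 59.0 and 58.9% of Cox7a1 plus Cox7a2 in Cre- replicates 1 to 5 and 64.5, 56.7, 57.0, 62.3 and 63.4% in Cre+ replicates 1 to 5. The 3 Cre+ libraries with a letter lay above all Cre- mice, and the other 2 lay within their range. The mean share was 57.7% ± 1.54 in Cre- and 60.8% ± 3.67 in Cre+ mice, a difference of 3.08 percentage points (95% interval -1.63 to 7.10, p = 0.135 by a two-sided exact permutation test, n = 5 per group). Without the 3 libraries with a letter it was -0.836 percentage points. The majority of both isoforms depended on the length assigned to each gene. As a share of raw counts, Cox7a1 was at 43.6% ± 1.54 and Cox8b at 51.5% ± 1.71 in Cre- mice, and with the longest transcript of an older annotation as the length they were at 51.2% ± 1.57 and 61.9% ± 1.61.

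Cox4i2 made up 0.338% ± 0.0449 of Cox4i2 plus Cox4i1 in Cre- and 0.357% ± 0.0526 in Cre+ mice (difference 0.0188 percentage points, 95% interval -0.0588 to 0.0958, p = 0.579 by the exact permutation test, n = 5 per group). Cox6a2 had 0.0536, 2.14, 0.0335, 0.0172 and 0.0211 CPM in Cre- replicates 1 to 5 and 0.0450, 0.0190, 0.0384, 1.50 and 0 CPM in Cre+ replicates 1 to 5. Its only values above 0.1 CPM were those of Cre- replicate 2 and Cre+ replicate 4, in which the summed skeletal muscle markers were highest, and the part of muscle transcripts in the level of Cox6a2 was not tested. The share of Cox6a2 in Cox6a2 plus Cox6a1 was 0.168% and 0.118% in these 2 libraries and at most 0.00470% in the other 8, and it did not pass the test (difference -0.0107 percentage points, 95% interval -0.0847 to 0.0590, p = 0.556 by the exact permutation test, n = 5 per group). Over the 4 pairs, the adjusted p-values (Benjamini-Hochberg) of the exact permutation tests were 0.54 to 0.579, and 0.00794 was the smallest unadjusted p they could give.

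**Figure D2:**
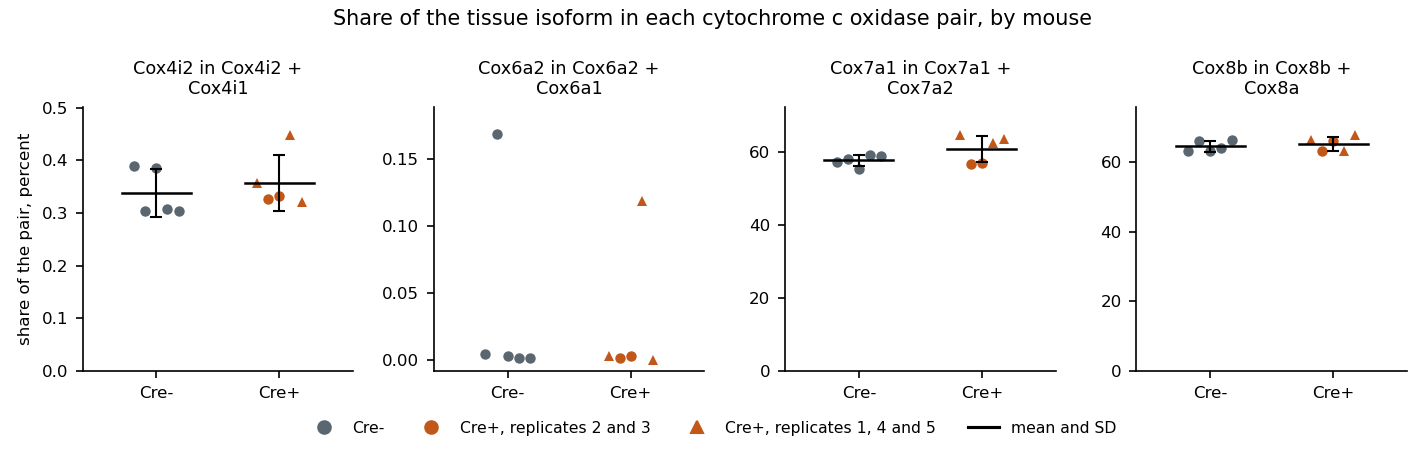
Share of the tissue isoform in each of 4 isoform pairs of cytochrome c oxidase, in percent of the summed CPM per kb of the pair, with 1 point per mouse and the mean and SD (n = 5 per genotype), which are left out for Cox6a2. Cox7a1 and Cox8b lie above 55% in every mouse, Cox4i2 reaches at most 0.448%, and the share of Cox6a2 is near 0 apart from 1 mouse of each genotype.

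The promoters of the genes were looked up in RefSeq (GRCm38.p6), as 250 bases before and 50 bases after the annotated start, and 39 of the 50 genes had such a window. Words of 4 factors known to act on respiratory genes were searched on both strands. The ETS word CCGGAAG, which GABP (nuclear respiratory factor 2) binds, was present in 18 of the 39 windows (46.2%) and in 9.12% of the windows of 27025 genes, and the nuclear respiratory factor 1 (NRF1) word GCATGCGC in 5 (12.8%) and 2.8%. The word AAGGTCA of the oestrogen-related receptors was present in 2 (5.13%, against 4.66%) and the YY1 word AAGATGGCG in 1 (2.56%, against 1.49%). The windows of the 39 genes had a median GC content of 60.0%, against 52.7% for all windows, and shares were not compared at equal GC content. The 250 bases before the start are shown, 5′ to 3′ on the strand of the gene, for Cox6a1 and Uqcr11, which each hold a word, and for the isoform pairs Cox7a1 and Cox7a2 and Cox8b and Cox8a. Other genes described further on also have words in their windows and are not shown. Examples are Uqcc3 (oestrogen-related receptors), Cox14 and Sdhaf2 (ETS), Sdhb (NRF1 and ETS) and Ttc19 (NRF1). Capitals mark matches to these words on either strand. Cox6a1 (chr5:115348959-115349208, minus strand) has 2 overlapping NRF1 matches, 1 on each strand, and 1 ETS match, Uqcr11 (chr10:80406822-80407071, minus strand) has 1 ETS match, and Cox7a1 (chr7:30183921-30184170, plus strand), Cox7a2 (chr9:79759854-79760103, minus strand), Cox8b (chr7:140900447-140900696, minus strand) and Cox8a (chr19:7217617-7217866, minus strand) have none of these letters in the 250 bases. In the whole windows, Uqcr11 has 1 more match, to the NRF1 word, and Cox8a has 2, to the ETS word, which lie across or after the start and are not part of the sequences shown.
Cox6a1: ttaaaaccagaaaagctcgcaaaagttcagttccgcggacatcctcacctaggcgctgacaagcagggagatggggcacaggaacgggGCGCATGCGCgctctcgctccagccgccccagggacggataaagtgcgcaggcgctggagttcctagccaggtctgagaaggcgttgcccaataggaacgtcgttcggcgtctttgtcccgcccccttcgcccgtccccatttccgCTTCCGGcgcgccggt
Uqcr11: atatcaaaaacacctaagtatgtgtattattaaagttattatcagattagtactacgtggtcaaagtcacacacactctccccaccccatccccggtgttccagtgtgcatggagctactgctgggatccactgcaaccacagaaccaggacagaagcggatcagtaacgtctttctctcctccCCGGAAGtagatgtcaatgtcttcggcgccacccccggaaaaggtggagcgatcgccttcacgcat
Cox7a1: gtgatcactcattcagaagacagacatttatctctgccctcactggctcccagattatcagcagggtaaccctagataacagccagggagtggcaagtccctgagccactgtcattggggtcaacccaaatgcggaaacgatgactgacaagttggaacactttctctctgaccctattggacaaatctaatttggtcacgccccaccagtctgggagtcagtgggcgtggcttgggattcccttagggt
Cox7a2: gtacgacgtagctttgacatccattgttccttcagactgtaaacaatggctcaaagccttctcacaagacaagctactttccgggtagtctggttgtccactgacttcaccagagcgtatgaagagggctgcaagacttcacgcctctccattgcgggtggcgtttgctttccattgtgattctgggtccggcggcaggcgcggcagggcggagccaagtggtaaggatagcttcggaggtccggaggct
Cox8b: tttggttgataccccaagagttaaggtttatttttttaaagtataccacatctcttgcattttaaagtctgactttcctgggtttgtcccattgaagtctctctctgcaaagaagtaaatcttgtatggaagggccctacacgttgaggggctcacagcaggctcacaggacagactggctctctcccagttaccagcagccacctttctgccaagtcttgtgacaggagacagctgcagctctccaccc
Cox8a: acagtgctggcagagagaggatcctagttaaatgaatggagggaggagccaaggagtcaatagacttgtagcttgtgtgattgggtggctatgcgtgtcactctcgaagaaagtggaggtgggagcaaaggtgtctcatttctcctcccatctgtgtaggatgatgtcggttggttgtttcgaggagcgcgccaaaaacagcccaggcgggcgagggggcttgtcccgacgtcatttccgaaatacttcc

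Whether deletion of RetSat in brown adipocytes was accompanied by other levels of these genes was asked by comparing Cre+ with Cre- mice. None of the genes changed at an adjusted p under 0.05. The quasi-likelihood test of edgeR, with p-values adjusted by Benjamini-Hochberg over all 17690 genes tested, called 0 of the 49 genes that passed the filter (Cox6a2 did not), against 0.164% of all genes, and DESeq2 and limma voom with sample quality weights also called 0, against 2.28% and 0.831% of all genes. The lowest adjusted p of a member in any setting was 0.0517, for Cox11 by DESeq2. The fold changes were small and their errors too. Log2 fold changes of Cre+ over Cre- ran from -0.15 to 0.45 with SEs of 0.06 to 0.20, and the 95% confidence interval lay within -0.5 and 0.5 for 44 of 49 genes. The median log2 fold change was 0.05, with 35 positive and 14 negative values (71.4% positive), against 0.00 and 50.3% over all genes tested.

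At an unadjusted p under 0.05, edgeR counted 7 members, all with a higher level in Cre+ mice. This is 14.3% of the 49 genes, against 12.3% of all genes tested in either direction, 6.4% with a higher and 5.95% with a lower level. DESeq2 counted 7 (14.3%), 6 with a higher and 1 with a lower level, against 7.91% of the 32289 genes it tested. With limma voom there were 14 (28.6%), 12 with a higher and 2 with a lower level, against 16.3%. The 7 genes of edgeR were 3 subunits, Cox7c, Uqcr11 and Cox6a1, and 4 assembly factors, Cox11, Uqcc3, Uqcc2 and Sco2. The count rested on single libraries, since it was 2 without Cre+ replicate 1, 2 without Cre+ replicate 5, 3 without Cre- replicate 3 and 11 without Cre+ replicate 2. Only Cox11 had genotypes that did not overlap, as had 2.67% of all genes tested, 1.2% with a higher level in Cre+ mice.

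**Figure D3:**
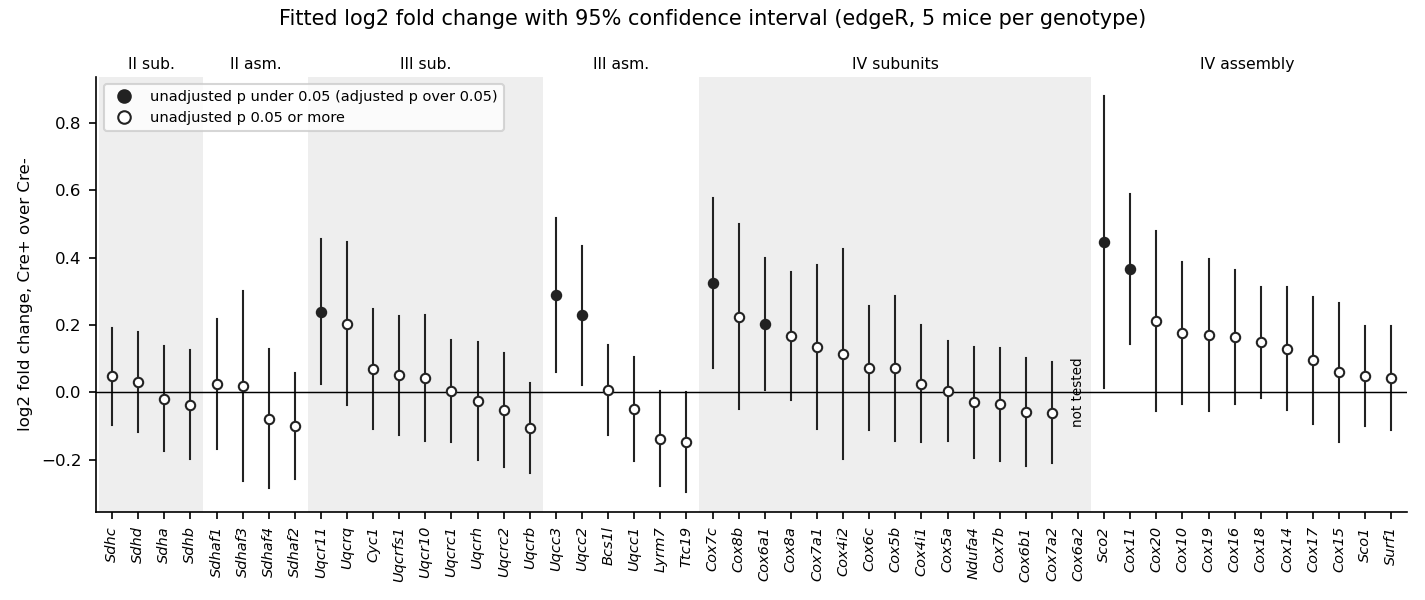
Log2 fold change of Cre+ over Cre- mice with its 95% confidence interval from edgeR for the 49 genes tested, grouped as in the plot of levels, with filled points for an unadjusted p under 0.05. All 12 complex IV assembly factors lie above 0, the complex II genes lie within 0.1 of it, and the adjusted p was above 0.05 for each gene.

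The 8 complex II genes had log2 fold changes from -0.10 to 0.05, and 0 had an unadjusted p under 0.05 by edgeR. Its 4 subunits had log2 fold changes from -0.04 to 0.05, with no 95% confidence interval reaching beyond -0.20 or 0.19, and 2 of the 4 were positive. Sdhb, the iron-sulfur subunit, had 853, 899, 802, 896 and 815 CPM in Cre- replicates 1 to 5 and 870, 743, 755, 907 and 886 CPM in Cre+ replicates 1 to 5. The Cre+ mice spread more widely, with replicates 2 and 3 below and replicate 4 above all Cre- mice (log2 fold change -0.04, SE 0.08, edgeR adjusted p = 0.88). Without the 3 libraries with a letter, the log2 fold change of Sdhb was -0.19 (unadjusted p = 0.0513 by edgeR), and the lowest interval limit of the 4 subunits was -0.39. Sdhc had a log2 fold change of 0.05 (SE 0.07, edgeR adjusted p = 0.814) and Sdha of -0.02 (SE 0.07, edgeR adjusted p = 0.944), the latter with 2528 to 3127 CPM in Cre- and 2712 to 2983 CPM in Cre+ mice. The 4 assembly factors had -0.10 to 0.03. Sdhaf2, which attaches flavin to Sdha, ranged from 51.4 to 57.5 CPM in Cre- and from 43.1 to 56.4 CPM in Cre+ mice, with a log2 fold change of -0.10 (SE 0.07, edgeR adjusted p = 0.619). Sdhaf4 had 17.7 to 21.3 CPM in Cre- mice and 14.9 CPM in Cre+ replicate 4, below 19.3 to 19.7 CPM in the other Cre+ mice (log2 fold change -0.08, SE 0.10, edgeR adjusted p = 0.78). Sdhaf3 had a log2 fold change of 0.02 (SE 0.13). Sdhaf1 was not assigned reliably, because 69.6% of its exon bases are also exons of E130208F15Rik.

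In complex III, the 9 subunits had log2 fold changes from -0.11 to 0.24 with a median of 0.04, and the 6 assembly factors from -0.15 to 0.29 with a median of -0.02. Uqcr11, which encodes a small accessory subunit and lies on chromosome 10 (80238831 to 80242664, GRCm39), had 285, 330.0, 256, 288 and 301 CPM in Cre- replicates 1 to 5 and 397, 287, 310, 335 and 396 CPM in Cre+ replicates 1 to 5. The 3 libraries with a letter lay above all Cre- mice and the other 2 Cre+ mice within their range (log2 fold change 0.24, SE 0.10, unadjusted p = 0.0317, edgeR adjusted p = 0.36). Uqcrq ranged from 563 to 717 CPM in Cre- and from 591 to 897 CPM in Cre+ mice, with a log2 fold change of 0.20 (SE 0.11, edgeR adjusted p = 0.488). Uqcr10 ranged from 404 to 527 CPM in Cre- and from 406 to 513 CPM in Cre+ mice, with a log2 fold change of 0.04 (SE 0.09, edgeR adjusted p = 0.874).

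The assembly factors of complex III had fold changes of both signs. Uqcc3, on chromosome 19 (8857378 to 8858287), had 42.0, 43.8, 36.1, 43.2 and 44.0 CPM in Cre- replicates 1 to 5 and 59.2, 45.0, 49.0, 41.3 and 61.0 CPM in Cre+ replicates 1 to 5. Cre+ replicates 1 and 5 were highest and Cre+ replicate 4 lay within the Cre- range (log2 fold change 0.29, SE 0.11, unadjusted p = 0.0173, edgeR adjusted p = 0.292). Uqcc2, which acts with Uqcc1 on newly made cytochrome b and lies on chromosome 17 (27341637 to 27352890), had 30.7, 38.0, 31.0, 34.4 and 38.7 CPM in Cre- replicates 1 to 5 and 43.1, 35.2, 39.6, 36.9 and 47.5 CPM in Cre+ replicates 1 to 5. The genotypes overlapped, and Cre+ replicates 1 and 5 were again the highest (0.23, SE 0.10, unadjusted p = 0.0326, edgeR adjusted p = 0.361). The other 4 had log2 fold changes of 0.01 or less. Lyrm7 had 18.9, 20.9, 21.1, 20.7 and 20.8 CPM in Cre- replicates 1 to 5 and 18.0, 19.4, 18.2, 19.0 and 18.4 CPM in Cre+ replicates 1 to 5. Of the Cre- mice only replicate 1 lay among the Cre+ mice (-0.14, SE 0.07, unadjusted p = 0.0541, edgeR adjusted p = 0.419). Ttc19, which clears fragments of the Rieske protein and was chosen after its values were seen, had -0.15 (SE 0.07, unadjusted p = 0.0529, edgeR adjusted p = 0.416).

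Complex IV subunits had log2 fold changes from -0.06 to 0.33 with a median of 0.07, and 10 of the 14 tested were positive. Cox7c, on chromosome 13 (86192935 to 86195023), had 145, 219, 181, 167 and 195 CPM in Cre- replicates 1 to 5 and 258, 197, 193, 227 and 260.0 CPM in Cre+ replicates 1 to 5. The 3 libraries with a letter lay above all Cre- mice (log2 fold change 0.33, SE 0.12, unadjusted p = 0.0154, edgeR adjusted p = 0.282), and 27.8% of the 51-base words of its transcripts occur in other genes such as Gm10012, so its counts miss reads that align in several places. Cox6a1, on chromosome 5 (115483701 to 115487040), had 1179, 1309, 1058, 1264 and 1135 CPM in Cre- replicates 1 to 5 and 1559, 1220, 1218, 1310 and 1536 CPM in Cre+ replicates 1 to 5. Cre+ replicates 1 and 5 lay well above the Cre- range, replicate 4 at its upper end and the other 2 within it (0.20, SE 0.09, unadjusted p = 0.0445, edgeR adjusted p = 0.393). Among the isoform pairs, log2 fold changes were 0.23 (SE 0.13) for Cox8b and 0.17 (SE 0.09) for Cox8a, 0.13 (SE 0.11) for Cox7a1 and -0.06 (SE 0.07) for Cox7a2, and 0.11 (SE 0.15) for Cox4i2 and 0.03 (SE 0.08) for Cox4i1. None of these passed the test, and both members of each pair overlapped between genotypes.

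All 12 complex IV assembly factors had positive log2 fold changes, from 0.04 to 0.45 with a median of 0.16, while 0 were called. Their summed level was 390, 453, 391, 432 and 433 CPM in Cre- replicates 1 to 5 and 462, 434, 468, 425 and 500.3 CPM in Cre+ replicates 1 to 5, with overlap. Cox11, which delivers copper to the Cox1 subunit and lies on chromosome 11 (90528999 to 90535757), had 10.8, 13.0, 13.1, 13.1 and 11.3 CPM in Cre- replicates 1 to 5 and 16.3, 14.2, 14.1, 15.2 and 19.2 CPM in Cre+ replicates 1 to 5. The lowest Cre+ mouse lay above the highest Cre- mouse, and the log2 fold change was 0.37 (SE 0.10, unadjusted p = 0.00352, edgeR adjusted p = 0.183). Of its exon bases, 48.3% are also exons of Tom1l1, from which its reads cannot be told apart where strand is not used. Sco2, which brings copper to the Cox2 subunit and lies on chromosome 15 (89255840 to 89258049), had 0.483, 0.455, 0.443, 0.550 and 0.569 CPM in Cre- replicates 1 to 5 and 0.828, 0.702, 0.470, 0.618 and 0.786 CPM in Cre+ replicates 1 to 5. All Cre+ mice but replicate 3 lay above the Cre- mice (0.45, SE 0.20, unadjusted p = 0.0442, edgeR adjusted p = 0.392), and 91.8% of its exon bases are also exons of Ncaph2 or Tymp. Cox14 ranged from 72.7 to 94.6 CPM in Cre- and from 84.1 to 105 CPM in Cre+ mice, with a log2 fold change of 0.13 (SE 0.09, edgeR adjusted p = 0.574). The remaining 9 had log2 fold changes from 0.04 to 0.21, all with an unadjusted p above 0.05. Among these, Cox20 and Cox16 also share exons with other genes, Cox20 91.1% of its exon bases with Hnrnpu and Cox16 56.8% with Gm20498 (log2 fold changes 0.21 and 0.16). The 8 complex IV assembly factors with at most 40% of their exon bases in other genes had log2 fold changes from 0.04 to 0.18 with a median of 0.11.

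**Figure D4:**
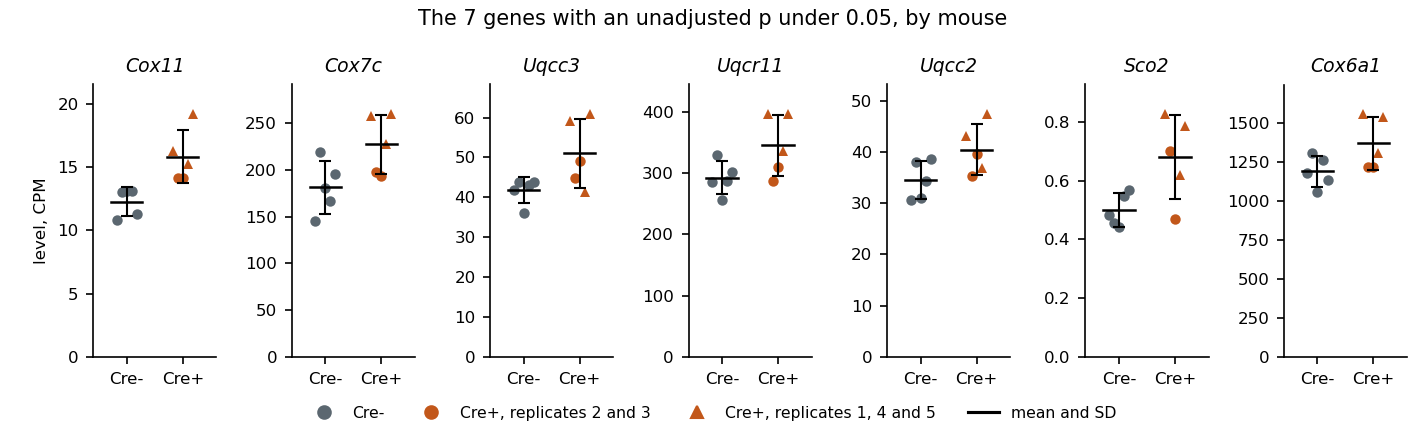
CPM of the 7 genes with an unadjusted p under 0.05, with 1 point per mouse and bars for the mean and SD of 5 mice, and triangles for the 3 Cre+ libraries with a letter in their identifiers. Cre+ replicates 1 and 5 hold the highest 2 values of each gene, and only for Cox11 do the genotypes not overlap.

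These higher levels lay mostly in 2 of the libraries with a letter. Over the 7 genes, the median log2 deviation from the Cre- mean was 0.41, 0.11, 0.11, 0.16 and 0.46 in Cre+ replicates 1 to 5, and -0.15 to 0.14 in Cre- mice. Leaving out Cre+ replicates 1, 4 and 5 left only 2 Cre+ mice beside 5 Cre- mice, and SEs were 0.08 to 0.27. In the fit of these mice, 0 of the 49 genes had an unadjusted p under 0.05 by edgeR, against 9.94% of all genes. The median log2 fold change was -0.004 with 24 positive and 25 negative values. In that fit the 14 complex IV subunits had 4 positive and 10 negative values (median -0.09), whereas 11 of the 12 complex IV assembly factors stayed positive (median 0.10). The 7 genes had smaller log2 fold changes there, 0.20 for Cox11, 0.10 for Cox7c, 0.16 for Uqcc3, 0.11 for Uqcc2, 0.22 for Sco2, 0.03 for Uqcr11 and 0.03 for Cox6a1. Across genes, the log2 fold change went with GC content with a Spearman's rho of 0.25 over 17628 genes and 0.42 over the 49 members, values that share the same 10 libraries. After a correction for GC content, 5 members (10.2%) had an unadjusted p under 0.05 by edgeR, against 11.0% of all genes. Of the 7 genes these included only Cox11, Cox7c and Uqcc3. The others were Cox16 and Cox20, which share most of their exon bases with other genes. The median of the members was 0.07 in that fit, and the complex IV assembly factors were again positive in 12 of 12. Cox11 then had 0.37, Cox7c 0.42 and Uqcc3 0.26, whereas Uqcr11 had 0.13 and Cox6a1 0.07, against 0.24 and 0.20 without the correction. Uqcc2 had 0.19 and Sco2 0.34, against 0.23 and 0.45 without it. Uqcr11 and Cox6a1 have a GC content of 59.8% and 62.7%, and Cox7c of 38.4%. The part of GC content and of the libraries with a letter in the differences between genotypes was not tested beyond these fits, and no Cre- library carries a letter.

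Without the 2 libraries in which muscle markers stood out, 11 members (22.4%) had an unadjusted p under 0.05, against 15.7% of all genes. All 11 had a higher level in Cre+ mice, and 0 members were called, against 289 of the 17821 genes tested in that fit.

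The subunits encoded by mtDNA, with which these genes form complexes III and IV, had negative log2 fold changes. mt-Co1, a catalytic subunit of complex IV, had 76731, 68378, 54747, 66237 and 64318 CPM in Cre- replicates 1 to 5 and 49017, 54599, 55903, 51263 and 49235 CPM in Cre+ replicates 1 to 5. Only Cre- replicate 3 lay within the range of the Cre+ mice (log2 fold change -0.35, SE 0.09, edgeR adjusted p = 0.149). mt-Cytb of complex III had -0.33 (SE 0.08, edgeR adjusted p = 0.132), with 41289 to 49682 CPM in Cre- and 34789 to 42700 CPM in Cre+ mice. mt-Co2 and mt-Co3 had only 1.39 to 2.55 CPM and 5.66 to 9.10 CPM in Cre- mice, in counts that leave out reads with several alignments, and log2 fold changes of -0.40 (SE 0.20) and -0.21 (SE 0.12). edgeR and limma voom called 0 of the 4, against 0.164% and 0.831% of all genes, and DESeq2 called 2, against 2.28%. By edgeR, 2 of the 4 had an unadjusted p under 0.05, against 12.3% of all genes tested. Without the 3 libraries with a letter, the median log2 fold change of the 4 was -0.20, against -0.34 with them, and after GC correction it was -0.27.

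The ratio of nuclear subunits to mtDNA-encoded partners was higher in Cre+ mice, whereas the nuclear sums by themselves overlapped between genotypes. The complex IV sum spanned 8520 to 10623 CPM without Cre and 9197 to 11192 CPM with it. For complex III the sum spanned 6583 to 7728 CPM without Cre and 6889 to 7619 CPM with it. The denominators mt-Co1 and mt-Cytb had log2 fold changes of -0.35 and -0.33. The summed CPM of the 15 nuclear complex IV subunits was 12.3, 15.5, 15.6, 14.9 and 14.9% of that of mt-Co1 in Cre- replicates 1 to 5 and 22.8, 16.8, 16.5, 19.0 and 22.5% in Cre+ replicates 1 to 5. The summed CPM of the 9 complex III subunits was 13.3, 15.6, 16.1, 15.2 and 14.5% of that of mt-Cytb in Cre- replicates 1 to 5 and 20.9, 16.2, 17.5, 20.4 and 21.7% in Cre+ replicates 1 to 5. Both ratios were higher in each Cre+ mouse than in each Cre- mouse, and the Cre+ mice without a letter lay nearest to the Cre- mice. The nearest values were 16.5% (Cre+ replicate 3) and 15.6% (Cre- replicate 3) for complex IV. For complex III they were 16.2% (Cre+ replicate 2) and 16.1% (Cre- replicate 3). How often ratios of other genes separate the genotypes was not tested. These ratios were formed after the values of both parts had been seen and are given without a test. mt-Co1 and mt-Cytb have a GC content of 39.9% and 39.1%, within the lowest quintile of all genes (22.1 to 43.8%), which deviated downwards in the libraries with a letter.

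**Figure D5:**
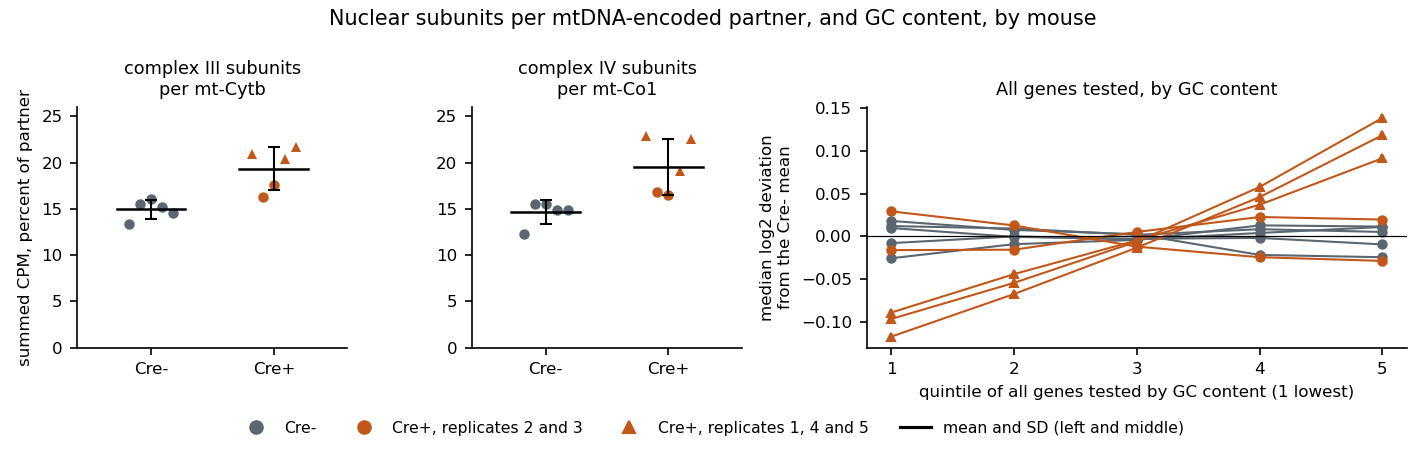
Left and middle, summed CPM of the nuclear complex III and IV subunits in percent of the CPM of mt-Cytb and mt-Co1, with 1 point per mouse and bars for the mean and SD of 5 mice, and, right, the median log2 deviation from the Cre- mean in quintiles of all genes by GC content, with 1 line per library. The ratios of the Cre+ mice lie above those of the Cre- mice, and the 3 Cre+ libraries with a letter (triangles) are the ones that deviate with GC content.

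Of 27 other nuclear genes of complexes II to IV, among them cytochrome c and further assembly factors, 22 were matched by symbol and 19 passed the filter. edgeR, DESeq2 and limma voom called 0 of them, against 0.164%, 2.28% and 0.831% of all genes. Against 12.3% of all genes tested, 1 of the 19 (5.26%) had an unadjusted p under 0.05 by edgeR. This was Coa4, a small twin-cysteine protein needed for complex IV, with 4.73, 4.29, 3.54, 4.62 and 3.69 CPM in Cre- replicates 1 to 5 and 5.72, 5.18, 5.46, 4.38 and 5.32 CPM in Cre+ replicates 1 to 5. All Cre+ mice but replicate 4 lay above the Cre- mice (log2 fold change 0.32, SE 0.12, unadjusted p = 0.0207, edgeR adjusted p = 0.313). The median log2 fold change of the 19 was 0.06, with 14 positive and 5 negative values.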

How the data were processed

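Libraries of 5 Cre- and 5 Cre+ mice were grouped by the genotype in the labels. The submitters' processing notes name Trimmomatic, STAR (both without a version), featureCounts 2.0.1 and the build GRCm39. Per the file headers, the deposited values are raw counts per gene of GENCODE M28, where mates were counted one by one, strand was ignored and reads with several alignments were dropped, so overlapping genes and near-identical copies share or lose reads.

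Here, counts were tested with edgeR 4.0.16 in R 4.3.3 (TMM, filterByExpr with a minimum count of 10 and a minimum total of 15, robust quasi-likelihood F test, Benjamini-Hochberg adjustment over all 17690 genes tested, calls at an adjusted p under 0.05). CPM are normalised by TMM. Per-kilobase levels use the annotated exon length of the files. Log2 deviations have a pseudocount of 0.5. Shares of isoform pairs were compared by two-sided exact permutation tests in SciPy 1.17.1, with intervals from inverting the test. Symbols of 52081 of the 55414 genes came from a table of identifiers. Promoter sequences came from RefSeq (GRCm38.p6) and were not used in any test. GC content and shared 51-base words were taken from GENCODE M21 transcripts. Tests were checked on simulated counts.

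The members, the lists and the rule for names were chosen with earlier results of these data known. Values are given for the isoform pairs, members with an unadjusted p under 0.05 or without overlap, the 2 smallest p and the highest and lowest level of each list, the mtDNA-encoded partners, Retsat and Ucp1. Sdhaf1, Ttc19 and Uqcrh were added after their values were seen. Alternatives were DESeq2 1.42.0, limma 3.58.1 voom with quality weights, other scaling and filters, a replicate block, a muscle covariate and leaving out libraries. GC correction was added after seeing the data. The replicate numbers were not taken to pair the mice. Each mouse gave 1 library.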

Additional observations from a re-analysis of the deposited data

Results flagged for a closer look

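In 10 of 108 groups of 5 mice tested, 1 mouse lay far from the other 4 by Dixon's test. Chance alone gives about 1 in 20 for independent groups. These groups share the same libraries, and Cox6a2 enters both as CPM and as a share, so an excess over chance cannot be read from this count. Cre+ replicate 4 was low for Sdhaf4 (14.9 CPM, against 19.3 to 19.7 CPM in the other Cre+ mice), Uqcrh (478 CPM, against 571 to 601 CPM) and Uqcr10 (406 CPM, against 485 to 513 CPM). Lyrm7 was low in Cre- replicate 1 (18.9 CPM, against 20.7 to 21.1 CPM) and Uqcc3 in Cre- replicate 3 (36.1 CPM, against 42.0 to 44.0 CPM). Cox6a2 was high in Cre- replicate 2 (2.14 CPM, against 0.0172 to 0.0536 CPM) and in Cre+ replicate 4 (1.50 CPM, against 0 to 0.0450 CPM), and so was its share in Cox6a2 plus Cox6a1 (0.168% and 0.118%). The share of Cox4i2 in Cox4i2 plus Cox4i1 was high in Cre+ replicate 4 (0.448%, against 0.322 to 0.356%). Cre- replicate 2 and Cre+ replicate 4 are the libraries with the highest sums of skeletal muscle markers, and the part of muscle transcripts in these values was not tested.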

How the results depend on the processing

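Of the 50 genes, 0 were called under any of 22 alternatives. The number of all genes called was 29 by edgeR, 393 by DESeq2, 147 by limma voom, 92 without a filter on low counts, 289 without the 2 libraries rich in muscle transcripts, and between 9 and 331 with 1 library left out (9 for Cre+ replicate 1, 331 for Cre+ replicate 4). The median log2 fold change of the members ran from -0.004, without the 3 libraries with a letter, to 0.09. Of 23 named members with a fold change, 12 kept their sign under all alternatives and 11 turned under at least 1. Of those that turned, Uqcrq had the largest log2 fold change by edgeR with all mice, 0.2045. Without the 3 libraries with a letter, the log2 fold change was -0.12 for Cox4i1, -0.15 for Cox4i2, -0.11 for Cox7a1, 0.0044 for Sdha, -0.062 for Sdhc and -0.070 for Uqcrq. Without the 2 libraries rich in muscle transcripts it was 0.007 for Cox7a2, 0.028 for Sdha and 0.022 for Sdhaf4. With GC correction Cox4i1 had -0.066, and with a muscle covariate Sdhaf3 had -0.0074. When 1 library was left out, the log2 fold change ran from -0.011 to 0.069 for Cox4i1, from -0.066 to 0.012 for Sdha, from -0.053 to 0.11 for Sdhaf3, from -0.070 to 0.0028 for Sdhb and from -0.0063 to 0.098 for Uqcr10. The cause of these turns was not tested.

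Differences in isoform share, in percentage points of Cre+ minus Cre-, turned for Cox4i2 (-0.0124 without the muscle-rich libraries, -0.00892 without those with a letter, -0.00393 to 0.0317 with 1 library left out, negative only without Cre+ replicate 4), for Cox6a2 (-0.0340 to 0.0224 with 1 library left out, positive only without Cre- replicate 2) and for Cox7a1 (-0.836 without the libraries with a letter). None of the shares passed the exact permutation test under any alternative, but without the libraries with a letter (smallest possible p 0.0952) and with the replicate block (0.0625) it could not.

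The replicate numbers were not taken to pair the mice, since the labels do not tie them to a shared litter or day and not all numbers passed the check. The correlation of same-numbered deviations was over 0.1 for 3 of 5 numbers and 5 of 10 libraries correlated best with their own number. With the replicate block, edgeR called 23 genes and 0 members, and the members' median was 0.05. With GC correction and the block together, Cox4i1 had -0.064 and Sdha 0.0001. With 5 mice per group, changes of single genes can be missed, and a count of 0 called does not show that levels were equal. Sco2, Cox20, Sdhaf1, Cox16 and Cox11 share over 40% of their exon bases with other genes.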
